A study of Mus musculus with 8 samples.

Results

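The TGF-beta and SMAD genes are described here through the places where ASH2L was bound at or near them. They are 10 genes picked by name, namely the ligands Tgfb1, Tgfb2 and Tgfb3, the receptors Tgfbr1 and Tgfbr2, and the signal transducers Smad2, Smad3, Smad4, Smad6 and Smad7, out of 21938 protein-coding genes of the annotation. A site was assigned to a gene when its centre lay within 3 kb of any annotated transcription start site (TSS) of that gene or inside the gene body, and 10 of the 6444 sites of the list met this rule.

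ASH2L is a subunit that all KMT2 complexes need in order to methylate histone H3 at lysine 4, and its binding was mapped by ChIP-seq in cells derived from the line iMEF-Ash2l fl/fl-Cre-ER, which the labels call iMEF, the sequencing of DNA that is precipitated together with a chromatin protein. These are immortalized mouse embryo fibroblasts with floxed Ash2l alleles and a Cre-ER recombinase. They carry a human ASH2L with an N-terminal FKBP12 F36V tag and HA epitopes that was delivered by a lentivirus. Cre-ER was then used to remove exon 4 of the mouse gene, and the cells were kept as single clones, so all groups share this replacement. NG3 was the clone used for most experiments, and the clone behind these libraries is not given in the sources used here. The groups were ASH2L precipitates and matching inputs, each from cells without dTAG and from cells given dTAG for 1 h, a compound that links the tag to the Cereblon ubiquitin ligase and so leads to its degradation, with 2 replicates in each of the 4 groups. The list analysed here joins the sites of all samples and gives only a chromosome, a start and an end, so no site had a value per sample, a depth, an error or a response to dTAG, and every comparison below is a description of positions without a test. Marker genes were checked in the same way: a site lay within 1 kb of a TSS at 5 of 10 fibroblast markers (Col1a1, Col1a2, Vim, Twist1 and Prrx1, but not Col3a1, Pdgfra, Pdgfrb, Thy1 or Dcn) and at 0 of 4 epithelial, 0 of 4 endothelial and 0 of 4 blood cell markers. Of all protein-coding genes 14.0% had such a site, so a count of 0 in 4 genes tells little, and a bound promoter is not a measure of expression.

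In TGF-beta signalling a secreted ligand binds the type II receptor Tgfbr2, which then activates the type I receptor Tgfbr1. The active receptor phosphorylates Smad2 and Smad3, which join Smad4 and enter the nucleus to act on target genes. Smad6 and Smad7 are inhibitors that the pathway itself induces, and in fibroblasts the pathway is known for driving collagen and contractile gene expression. KMT2 complexes act at promoters and at enhancers, and the trimethylated form of the lysine is found mostly at CpG-rich promoters.

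A promoter site, meaning a site centred within 1 kb of a TSS, was present at 4 of the 10 genes, namely Tgfb2, Smad4, Smad6 and Smad7. Over all protein-coding genes the share was 14.0%. The same 4 genes had a site within 3 kb, against 15.4% of all protein-coding genes, and the same 4 had a site in the gene body, against 15.8%. These counts rest largely on the same sites. Of the 10 sites, 7 lay within 1 kb of a TSS, 2 at 1 to 3 kb and 1 only in the gene body. No site lay within 3 kb or in the body of Tgfb1, Tgfb3, Tgfbr1, Tgfbr2, Smad2 or Smad3. By role, 1 of 3 ligands, 0 of 2 receptors and 3 of 5 SMADs had a promoter site. The SMADs carried 9 of the 10 sites with a summed width of 3730 bp, and the ligands carried 1 site of 217 bp. Among these 5 SMADs, both inhibitory genes and the common partner had sites, and the receptor-activated Smad2 and Smad3 had none. The roles hold too few genes for these shares to be told apart.

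**Figure D1:**
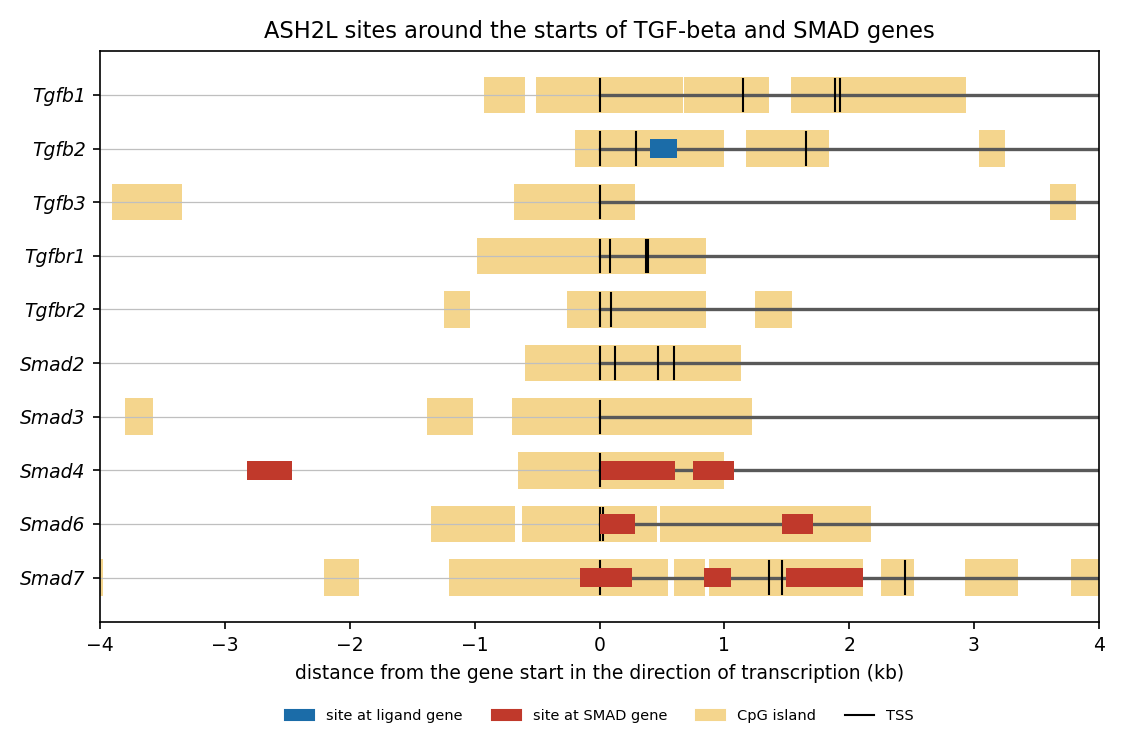
Map of the 10 genes from 4 kb before to 4 kb after the gene start (x axis, kb in the direction of transcription), with the gene body as a dark line, TSSs as vertical ticks, CpG islands as pale boxes and ASH2L sites as coloured boxes to scale. Sites appear at Tgfb2, Smad4, Smad6 and Smad7, while all 10 gene starts lie in a CpG island. The Smad7 site 18737 bp into the gene is outside the range.

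Sequences are shown for the sites of Smad6 and Tgfb2 and for promoters with and without a site. They differ in length and kind, so they are examples and not a comparison of base composition. The sites of Smad4 and Smad7 are not printed. Their GC contents ran from 44.7% to 81.3%, against 68.9% and 71.3% at Smad6 and 74.7% at Tgfb2. All printed stretches are on the strand of the gene, 5′ to 3′, in GRCm38.p6 coordinates, with each CpG dinucleotide in capitals. The whole second site of Smad6, chr9:64020350-64020600, is coding sequence and holds 31 CpGs in 251 bp. The other stretches are the central 30 bases of the first Smad6 site, chr9:64021904-64021933, and of the Tgfb2 site, chr1:186705464-186705493, with 4 and 3 CpGs.
Smad6 site 2: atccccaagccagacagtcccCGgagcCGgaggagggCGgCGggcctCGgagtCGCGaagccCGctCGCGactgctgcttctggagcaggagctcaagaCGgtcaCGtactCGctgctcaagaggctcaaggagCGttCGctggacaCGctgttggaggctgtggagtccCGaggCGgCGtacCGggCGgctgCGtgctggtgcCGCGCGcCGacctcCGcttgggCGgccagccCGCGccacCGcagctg
Smad6 site 1 centre: ccagagaaagagcCGcCGggCGctgcctCG
Tgfb2 site centre: cctCGcCGcctgctcCGgcctctgtggatc

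Promoters come from the RefSeq table of the same build, which held 7 promoters of 6 of the 10 genes. Shown are the 250 bases before the start of Smad6, chr9:64022060-64022309, which has a site next to them, and of Smad3 and Tgfbr1, which have none, at chr9:63757995-63758244 and chr4:47352972-47353221. Smad3 was taken as the neighbour of Smad6 on chromosome 9 and Tgfbr1 as the gene farthest from any site. The stretches hold 27, 22 and 29 CpGs. The same stretch held 8 CpGs at Tgfb2, which has a site, and 21 at Tgfb1, 12 at Tgfbr2 and 3 at the second start of Tgfbr1, which have none, so the printed promoters are the richest in CpGs of the 7.
Smad6 promoter: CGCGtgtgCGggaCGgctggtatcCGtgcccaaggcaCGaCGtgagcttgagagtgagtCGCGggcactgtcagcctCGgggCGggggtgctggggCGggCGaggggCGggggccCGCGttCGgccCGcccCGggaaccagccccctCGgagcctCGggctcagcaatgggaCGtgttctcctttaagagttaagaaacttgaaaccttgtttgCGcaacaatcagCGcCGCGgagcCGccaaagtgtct
Smad3 promoter: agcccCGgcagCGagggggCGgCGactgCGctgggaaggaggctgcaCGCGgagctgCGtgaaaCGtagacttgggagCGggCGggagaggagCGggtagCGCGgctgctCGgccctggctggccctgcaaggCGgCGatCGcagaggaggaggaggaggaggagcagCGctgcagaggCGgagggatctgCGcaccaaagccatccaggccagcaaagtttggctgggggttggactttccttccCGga
Tgfbr1 promoter: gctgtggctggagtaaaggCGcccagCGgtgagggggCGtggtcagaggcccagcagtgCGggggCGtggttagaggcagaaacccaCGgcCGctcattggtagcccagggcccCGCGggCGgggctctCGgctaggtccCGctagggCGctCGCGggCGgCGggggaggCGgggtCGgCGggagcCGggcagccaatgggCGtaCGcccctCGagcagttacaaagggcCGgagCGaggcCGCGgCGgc

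Among the ligands, Tgfb2 alone had a site. Tgfb2 (ENSMUSG00000039239.14), which encodes a secreted TGF-beta ligand, lies on chromosome 1 from 186622792 to 186705989 on the minus strand and has 6 annotated TSSs. Its single site spanned 186705370 to 186705586, a width of 217 bp, and lay entirely in UTR sequence. The centre was 222 bp downstream of the start of a coding transcript and 511 bp downstream of the gene start. It was also 217 bp from the start of Gm29491, a noncoding gene on the opposite strand, so the site cannot be given to only one of the genes by position. The whole site lay in a CpG island of 1198 bp and had a GC content of 74.7%. It was narrow, since 17.9% of promoter sites of protein-coding genes were narrower.

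Tgfb1 (ENSMUSG00000002603.15; chromosome 7, 25687002 to 25705077, 5 TSSs) and Tgfb3 (ENSMUSG00000021253.7; chromosome 12, 86056745 to 86079041, 1 TSS) encode the other ligands. The site nearest to Tgfb1 was 62199 bp away from its closest TSS and 84 bp from a TSS of Hnrnpul1. The site nearest to Tgfb3 was 50134 bp upstream, and the closest TSS of another gene, Ift43, was 10773 bp from it. Over all protein-coding genes the median distance to the nearest site was 93.8 kb, and 58.9% and 62.9% of genes lay farther from a site than Tgfb1 and Tgfb3.

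The receptor genes lay farthest from any site. Tgfbr1 (ENSMUSG00000007613.15), the type I receptor kinase, lies on chromosome 4 from 47353222 to 47414931 and has 5 TSSs. Its nearest site was 901 kb upstream, a distance that 6.73% of protein-coding genes exceeded. Tgfbr2 (ENSMUSG00000032440.13), the type II receptor kinase, lies on chromosome 9 from 116084293 to 116175360 and has 2 TSSs. Its nearest site was 208 kb upstream, and 31.0% of genes lay farther from a site.

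**Figure D2:**
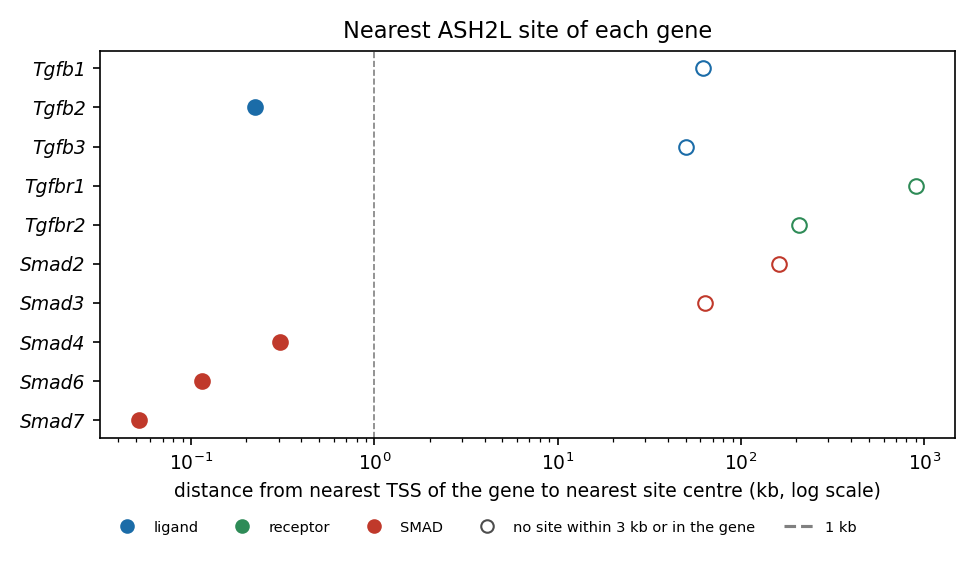
Distance from the nearest TSS of each gene to the centre of the nearest ASH2L site (x axis, kb, log scale), 1 point per gene, filled where the gene has a site and open where it has none, with the 1 kb limit as a dashed line. The genes with a site lie between 52 bp (Smad7) and 307 bp (Smad4), and the others between 50.1 kb (Tgfb3) and 901 kb (Tgfbr1).

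Smad2 and Smad3, the receptor-activated SMADs among the 10 genes, carry the signal from the receptor and had no site. Smad2 (ENSMUSG00000024563.16; chromosome 18, 76241580 to 76310963, 6 TSSs) was 161 kb from its nearest site, and 36.9% of protein-coding genes were farther. Smad3 (ENSMUSG00000032402.12; chromosome 9, 63646767 to 63757994, 5 TSSs) was 63.9 kb from its nearest site, which lay 52 bp from a TSS of Aagab, and 58.3% of genes were farther. Smad3 is the longest of the 10 genes with 111228 bp.

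Smad4 (ENSMUSG00000024515.13), the common partner of the receptor-activated SMADs, lies on chromosome 18 from 73639009 to 73703780 on the minus strand, with 6 TSSs. It had 3 sites around its start. The middle one was 599 bp wide (73703174 to 73703772) and centred 307 bp downstream of the TSS in UTR sequence, with 57.3% of its length in exons and the rest in introns. With a GC content of 81.3% and 112 CpGs it was the richest in CpGs of the 10 sites, and 88.8% of promoter sites were narrower. A second site of 331 bp (73702705 to 73703035) followed after a gap of 138 bp in the intron, 910 bp downstream of the TSS. It reached across the edge of the 1644-bp CpG island, with 75.5% of its length inside, and its GC content was 44.7%. The third site of 360 bp (73706245 to 73706604) lay 2644 bp upstream of the TSS, outside the gene and outside any island, with a GC content of 51.4% and an observed to expected CpG ratio of 0.211. It was 4904 bp from the nearest TSS of another gene, the noncoding AC132418.1.

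Smad6 (ENSMUSG00000036867.7), an inhibitory SMAD known mainly for restraining BMP signals, lies on chromosome 9 from 63953076 to 64022059 on the minus strand and has 3 TSSs. Its first site was 283 bp wide (64021777 to 64022059) and ended exactly at the annotated gene start, so its whole length was exonic, with the centre 114 bp downstream of the nearer TSS. Of this site 90.5% is annotated as coding in at least 1 transcript, and all of it as UTR in others. The second site of 251 bp (64020350 to 64020600) was centred 1557 bp downstream of a TSS, outside the 1 kb promoter window, entirely in coding sequence. The sites were separated by 1176 bp and lay in separate CpG islands of 1081 and 1689 bp, with GC contents of 68.9% and 71.3%. The nearest TSS of another gene, 1700055C04Rik, was 19547 bp from the first site.

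Smad7 (ENSMUSG00000025880.11), the inhibitory SMAD that blocks the TGF-beta receptor, lies on chromosome 18 from 75367529 to 75395935 on the plus strand and has 5 TSSs. It had the most sites of the 10 genes, with 3 within 1 kb of a TSS and 1 deep in the gene. The first, 415 bp wide (75367374 to 75367788), spanned the gene start with its centre 52 bp downstream and 62.7% of its length inside the gene. The start of the noncoding Gm20544 on the opposite strand was 493 bp from its centre. A second site of 220 bp (75368363 to 75368582) lay in UTR sequence 943 bp downstream of the gene start, which is 411 bp upstream of a coding transcript that starts inside the gene. The third site of 610 bp (75369027 to 75369636) was centred 341 bp downstream of the start of another internal transcript and was 88.9% coding. The gaps between these sites were 574 and 444 bp. The fourth, 661 bp wide (75385936 to 75386596), lay in an intron 18737 bp downstream of the gene start and 11352 bp from the nearest annotated TSS. It was the widest site of the 10 genes, and 22.8% of its length fell in a short CpG island of 289 bp.

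Several sites per promoter were found at Smad4 and Smad7. At least 2 sites within 1 kb of TSSs were present at 2 of the 10 genes, and at 2.07% of all protein-coding genes. At least 3 were present at Smad7, and at 0.315% of all protein-coding genes. At least 4 sites in the gene body were present at Smad7, and at 0.465% of all. When sites within 1 kb of each other were merged, the 10 sites became 7, since the neighbouring sites of Smad4 and Smad7 were joined, and the 4 genes with a promoter site stayed the same.

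The chromosomal positions of the SMADs were set beside their sites, and a link between the 2 was not tested. Smad3 and Smad6 are neighbours on chromosome 9, 195 kb apart, with 1 further site between them, and Smad6 had 2 sites while Smad3 had none. Smad4, Smad7 and Smad2 follow each other on chromosome 18. In the 1664 kb between Smad4 and Smad7, which both had sites, the list had 3 sites, 2 of them not at members. In the 846 kb between Smad7, with 4 sites, and Smad2, with none, the list had 0 sites.

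Base composition overlapped between the members with and without a site. A CpG island lay within 1 kb of a TSS at 10 of the 10 genes and at 73.4% of all protein-coding genes. Among the protein-coding genes with such an island 19.0% had a promoter site. The island at the gene start ran from 1081 to 1753 bp in the 4 genes with a site and from 973 to 1924 bp in the 6 without. In the 500 bp centred on the gene start, the median GC content was 71.5% (range 54.0 to 75.8%) with a site and 72.9% (49.2 to 77.8%) without. The observed to expected CpG ratio had medians of 0.855 (0.468 to 1.03) and 0.851 (0.657 to 1.14). The ranges overlapped in each of these measures. The lowest CpG ratio belonged to Tgfb2, which had a site, and the highest to Smad2, which had none.

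**Figure D3:**
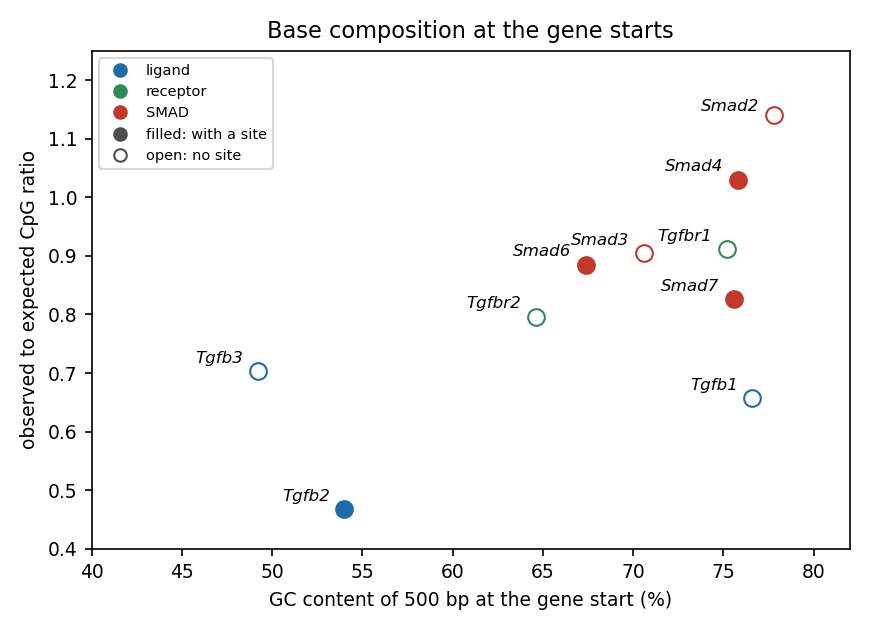
GC content (x axis, %) and observed to expected CpG ratio (y axis) of the 500 bp centred on each gene start, 1 point per gene, coloured by role, filled with a site and open without. Filled and open points are interspersed, with Smad4 at 75.8% and 1.03 near Smad2 at 77.8% and 1.14.

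Gene structure overlapped as well. The genes with a site had 3 to 6 annotated TSSs and those without had 1 to 6. Of the protein-coding genes with 4 to 6 TSSs, 17.9% had a promoter site, and of those with 1 TSS 4.85% had one. A gene with more TSSs also had more windows searched, and the part of this in the shares was not tested. The 10 genes are between 18.1 and 111 kb long, and of the 8593 protein-coding genes in this range 20.6% had a site in the gene body.

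The position relative to the TSS and to CpG islands was set beside that of other sites. The centre was downstream of the nearest TSS in 6 of the 7 promoter sites of the 10 genes and in 66.9% of the promoter sites of all protein-coding genes. The exception among the 7 was the second site of Smad7, which is downstream of the gene start but upstream of an internal start. A CpG island overlapped with 9 of the 10 sites and with 65.0% of all sites at protein-coding genes. The Smad4 site 2644 bp upstream of its TSS did not overlap one. The islands differed in how much of a site they covered, from 22.8% for the intronic Smad7 site to 100% for 6 sites.

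Widths ranged from 217 to 661 bp with a median of 346 bp, and the 7 promoter sites had a median of 331 bp. The median of all promoter sites of protein-coding genes was 305 bp (quartiles 232 and 425 bp). The narrowest site was at Tgfb2 and the widest 3 were at Smad4 and Smad7. At Smad7 sites of 610 and 220 bp were neighbours, and the Smad4 sites were 331, 360 and 599 bp wide.

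**Figure D4:**
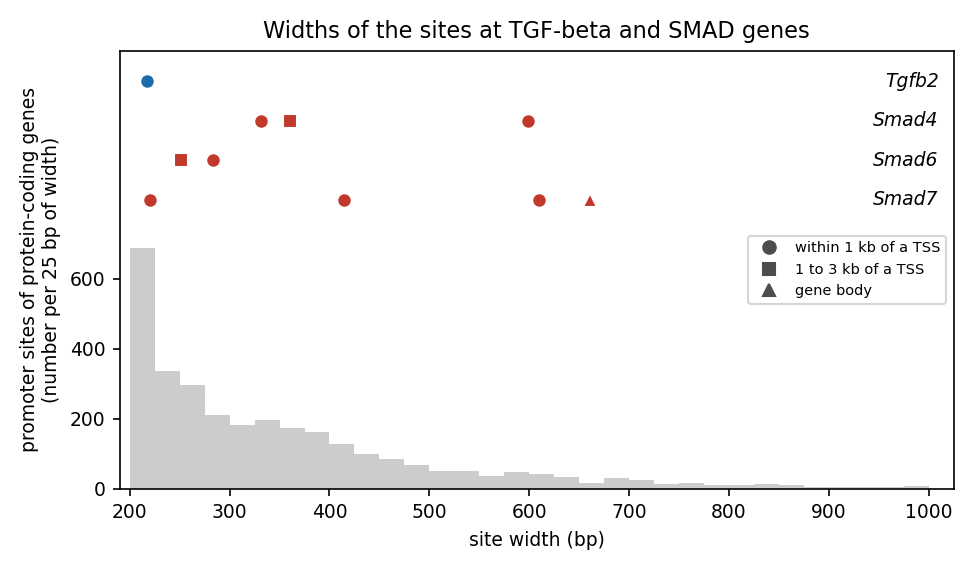
Widths of the 10 sites (points, x axis in bp, 1 row per gene, symbols for distance to the TSS) above the histogram of 3168 promoter sites of protein-coding genes (y axis, number per 25 bp; 98 sites wider than 1000 bp are not drawn). The Tgfb2 site, at 217 bp, is in the lowest bin, and 3 sites of Smad4 and Smad7 lie between 599 and 661 bp.

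AP-1, the dimer of Jun and Fos proteins that often acts with SMADs, binds the letters TGACTCA or TGAGTCA. Searched on both strands in the central 200 bp, 0 of the 10 sites held such a match, which allows a share of up to 30.0% (3 counts of the total, counting error only). Of all sites at protein-coding genes 4.54% held one, so a lower share than this was not detectable with 10 sites. No match was found in the whole sites or in the central 500 bp either. The cyclic AMP response element TGACGTCA was in 0 of the 10 sites, both in the central 200 bp and in the whole sites. It was in the central 200 bp of 0.635% of all sites at protein-coding genes. The palindromic SMAD element GTCTAGAC was in 0 of the 10 central windows and in 0.102% of all, and none of these strings contains another.

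The 7 RefSeq promoters available for 6 members, 250 bases before to 50 after the start, held no AP-1 or cyclic AMP element. The SMAD element occurred once among them, at Smad6. Tgfb3, Smad2, Smad4 and Smad7 had no entry there, so their RefSeq promoters were not searched for these elements. Over all 32851 promoters of this length in the table, AP-1 letters were in 5.20%, the cyclic AMP element in 1.79% and the SMAD element in 0.213%. Over the 20150 of these promoters whose symbol is that of a protein-coding gene, the shares were 4.65%, 2.31% and 0.228%. The Smad6 match spans chromosome 9 from 64022056 to 64022063, begins 4 bases before the TSS and ends inside the gene. Its last 4 bases are the first bases of the Smad6 site at the gene start. The match is shown because it lies at the border of a site, with the motif in capitals, at chr9:64022045-64022074 on the minus strand.
Smad6 motif: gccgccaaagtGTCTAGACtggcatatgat

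Other genes of the pathway were counted in the same way from a list of 111 genes chosen by role. A promoter site was present at 39 of them (35.1%), next to the 14.0% of all protein-coding genes given above. A CpG island lay within 1 kb of a TSS at 104 of these genes, beside 73.4% of all protein-coding genes. The list was put together by hand, and nothing particular to it is read from the count.

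Upstream of the SMADs, 1 of 19 genes listed as other ligands of the superfamily had a promoter site. The listed genes include Bmp1, which encodes a protease and not a ligand, and which had no site. The gene with promoter sites was Inhba, the subunit of activin A, with 4 sites and a summed width of 1165 bp. Of 12 genes for latency and activation of the ligands, 3 had one, namely Thbs1 (2 sites), which encodes an activator of latent TGF-beta, the integrin subunit gene Itgav (1 site of 580 bp) and the latent TGF-beta binding protein gene Ltbp4 (1 site of 366 bp). Of 13 other receptors and co-receptors, 4 had a promoter site, and those with the largest were the BMP receptor gene Bmpr1a (2 sites, 2053 bp together), the activin receptor gene Acvr2a (1 site of 1699 bp) and Bmpr2 (1 site of 206 bp). Type I and type II receptor genes outside the 10 members therefore did carry sites. Of 11 extracellular antagonists, 3 had one: Grem1 (296 bp), Fst (260 bp) and the decoy receptor gene Bambi (251 bp).

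Inside the cell, 1 of 3 other SMADs, Smad5, had promoter sites, 2 in number with a widest of 217 bp. Smad5 is a receptor-activated SMAD of BMP signalling, so not all receptor-activated SMADs lacked sites. Intracellular regulators had the highest share of the roles, 11 of 18 genes (61.1%). Among them Zfyve9, which encodes the SARA anchor that brings Smad2 and Smad3 to the receptor, had 3 promoter sites, the deubiquitinase gene Usp15 had 2 and Pmepa1, a target gene whose product restrains SMAD signalling, had 1 of 693 bp. Of 16 nuclear partners 7 had a promoter site (43.8%), led by Runx2 with 6 sites and by Zeb1 and Zeb2 with 2 each. Of 19 fibroblast target genes 9 had one (47.4%), led by the collagen gene Col1a1 (1760 bp), the smooth muscle actin gene Acta2 (870 bp) and Ccn1 (704 bp). Acta2 had no CpG island within 1 kb of a TSS.

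**Figure D5:**
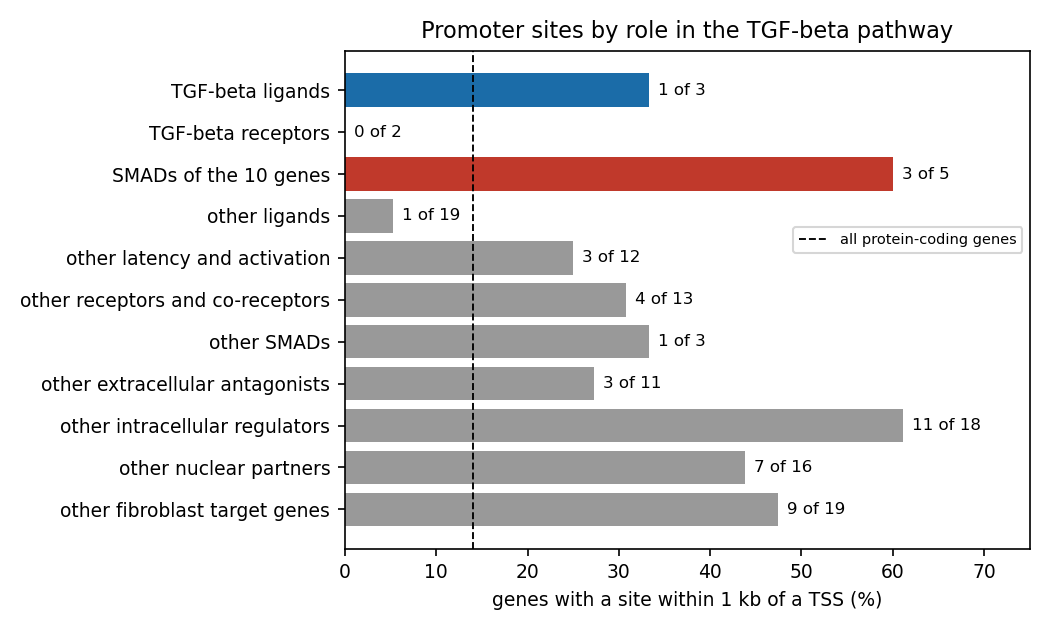
Share of genes with a site within 1 kb of a TSS (x axis, %) for the roles of the 10 genes (coloured bars) and of 111 other pathway genes (grey bars), with counts beside the bars and the 14.0% of all protein-coding genes as a dashed line. The SMADs (3 of 5) and the other intracellular regulators (11 of 18) have the highest shares. The TGF-beta receptors (0 of 2) and the genes listed as other ligands, with the protease gene Bmp1 among them (1 of 19), have the lowest.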

How the data were processed

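Per the labels and the study's methods, the authors trimmed reads (Trim Galore), aligned them to mm10 (GRCm38.p6) with BWA, filtered them with SAMtools, pooled replicates through Picard and ran MACS in its narrow peak mode. The labels name ASH2L as the antibody target, and the methods name antibodies against the HA epitope. The deposited list holds positions of the union of sites over all samples and no per-sample values. Starts were read as counted from 0, since the narrowest site is then 200 bp, and positions are printed counted from 1. TSSs came from GENCODE M21, which is older than the release the authors used, and bases from GRCm38.p6. Only the 6428 sites on assembled nuclear chromosomes were used. CpG islands were stretches covered by 200-bp windows in which GC content exceeded 50% and the CpG ratio, observed to expected, exceeded 0.6. The members and lists were chosen with earlier results of these data known. All members were named, and per role of the 111 other genes (matched by symbol) the 3 with the most promoter sites, ties by summed width. Counting was tested on simulated data. Calculations used Python 3.11.15, NumPy 2.4.6, pandas 2.3.3 and matplotlib 3.10.9. No test across samples could be made.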

Additional observations from a re-analysis of the deposited data

How the results depend on the processing

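The 11 counts were recomputed under 48 alternatives, and all 48 stayed within 1.5 times the main count. They changed the window around the TSS, the set of TSSs, the use of the centre or any base of a site, the merging of neighbouring sites, the island definition and the motif window. Alternatives with TSSs of RefSeq transcripts were chosen after seeing the data. Tgfb2, Smad4, Smad6 and Smad7 had a promoter site in each of the 8 settings for members, while the share of all protein-coding genes ranged from 12.3% (gene start alone) to 14.9% (window of 2 kb). The nearest sites of these 4 genes lay 52 to 307 bp from a TSS, and those of the other members at 50.1 kb or more. Windows of 500 bp or 2 kb therefore could not change the count of members. The 39 other pathway genes with a promoter site became 27 with a window of 500 bp and 40 with one of 2 kb. The limits lie in the list itself. It has no column per sample, so no replicate could be left out, no paired analysis was possible because no value belongs to a replicate, and site strength, depth and the effect of dTAG were not analysed here. A site missing from the list may have fallen below the authors' threshold.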

Other observations

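Sites inside the gene body of the 111 other pathway genes were looked at after their values were seen. At least 4 were present at Thbs1, Runx2 and Tgfbr3. Thbs1, whose product activates latent TGF-beta, had 8 sites in a gene body of 15258 bp. Runx2, a transcription factor gene, had 6 sites in a body of 318811 bp, and also 6 within 1 kb of a TSS. The co-receptor gene Tgfbr3 had 4 sites in a body of 183060 bp and none within 3 kb of a TSS. Ltbp1 and Fbn1, which encode matrix proteins that store latent TGF-beta, each had 1 site in the gene body and none at a promoter. At least 4 sites in the body were found at 0.465% of all protein-coding genes. These values were not tested.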
